A study of Mus musculus with 6 samples.

Results

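The genes examined here were the mouse histone genes named by the cluster system (H1f, H2ac, H2bc, H3c and H4c with a number, or the older Hist names), nearly all of which are replication-dependent. A member was any CUT&Tag region that the deposited annotation assigned to such a symbol. In the T set, 33 of 170890 regions in the table comparing TGF-b with NC (24 genes) and 24 of 180118 regions in the table comparing TGF-b plus siRNA with TGF-b (20 genes) were members. In the S set, 6 of 52723 and 6 of 52579 regions were members, each on a gene of its own. Across the 4 tables, 32 genes had at least 1 region, 29 of them in the T set, 10 in the S set and 7 in both. RefSeq (GRCm38.p6) lists 68 genes with such symbols, and 28 of the 32 were found there. The rule for members uses symbols and no measured value, but regions enter a table only where a peak was called.

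Replication-dependent histone genes encode the bulk of the H1, H2A, H2B, H3 and H4 proteins that package newly made DNA. They lack introns as a rule, lie in tight clusters with divergent H2A and H2B pairs, and give transcripts that end in a stem-loop in place of a poly(A) tail. Their transcription is confined largely to S phase, under the coactivator Npat, and a proliferating fibroblast uses them heavily. A few symbols of the same pattern belong to linker histones of the germ line (H1f6, H1f7, H1f8 and H1f9). Without them, 29 of 33, 22 of 24, 5 of 6 and 6 of 6 regions stayed in the 4 tables.

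Primary cardiac fibroblasts from the mouse heart were profiled in 6 libraries, 3 in a T set and 3 in an S set. Each set held a control (NC), cells given TGF-b, and cells given TGF-b together with a small interfering RNA (siRNA). TGF-b is the cytokine that drives fibroblasts towards the contractile myofibroblast. The siRNA was labelled SiTAZ in the T set and SiSRF in the S set. The label NC does not say whether those cells were untreated. The study's legend names a scrambled siRNA as the control for the Piezo2 siRNA, both given before TGF-b. The study profiled TAZ, a coactivator of the TEAD factors, and SRF, a factor that binds CArG boxes, after an siRNA against Piezo2. The sample labels name no antibody, so that T stands for TAZ and S for SRF is inferred, and the siRNA named in the labels differs from that of the study. GEO's design text for the series speaks of Tet3 deletion by Cre, which no sample label mentions, and whether the cells came from pooled animals is not given in the sources used here. CUT&Tag maps where an antibody target sits on DNA, so neither the knockdown nor any transcript level can be read from it. Of 8 fibroblast marker genes, 4 had a region within 1 kb of a start site in the T table of TGF-b against NC (Col1a1, Col1a2, Dcn and Vim), and 4 of 6 cardiomyocyte markers had one too. In the S table of siRNA against TGF-b, none of the 8 fibroblast markers had one. Marker promoters therefore did not separate the labelled cell type from others.

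Each group was 1 library, so no difference below has a replicate check and no test was made. Reads are those within a 2 kb window around a peak summit, recovered from the deposited densities. The normalised read density is close to (reads + 1)/2, that is, reads per kb, shifted by the authors' normalisation line. The log2 ratio is that of the second library's density over the first's, and intervals are 95% Wilson intervals for counting error only. A region of 3 reads or fewer is at the floor used here.

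The promoters on which the T-set and S-set results turn are shown for 9 of the genes whose region lay next to the start site and differed at least 2-fold in some comparison. These are the 150 bases (115 for H4c8) before the RefSeq start site (GRCm38.p6, gene strand), with capitals marking CCAAT boxes (on the other strand the letters are ATTGG), TATA boxes (the letters TATAAA, on the other strand read as TTTATA) and CArG boxes. No stretch lies in another RefSeq gene.
H2ac20 (chr3:96220881-96221030, minus): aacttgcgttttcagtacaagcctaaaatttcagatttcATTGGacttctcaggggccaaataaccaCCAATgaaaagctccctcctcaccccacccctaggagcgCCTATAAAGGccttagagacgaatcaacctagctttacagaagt
H3c11 (chr13:21783398-21783547, minus): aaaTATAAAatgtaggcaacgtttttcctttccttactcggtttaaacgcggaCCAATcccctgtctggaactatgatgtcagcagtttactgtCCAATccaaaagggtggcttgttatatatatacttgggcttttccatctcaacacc
H2bc9 (chr13:23543445-23543594, minus): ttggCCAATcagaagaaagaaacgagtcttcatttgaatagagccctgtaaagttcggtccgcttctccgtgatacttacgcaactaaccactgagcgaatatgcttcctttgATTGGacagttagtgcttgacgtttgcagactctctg
H2bc3 (chr13:23746584-23746733, plus): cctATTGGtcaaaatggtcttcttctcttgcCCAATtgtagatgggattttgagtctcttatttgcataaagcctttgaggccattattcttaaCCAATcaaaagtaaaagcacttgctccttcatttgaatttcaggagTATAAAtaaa
H2ac7 (chr13:23574231-23574380, plus): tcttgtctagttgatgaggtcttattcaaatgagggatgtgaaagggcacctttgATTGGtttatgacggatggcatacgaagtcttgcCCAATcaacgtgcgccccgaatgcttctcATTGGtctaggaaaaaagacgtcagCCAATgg
H2ac13 (chr13:21716262-21716411, plus): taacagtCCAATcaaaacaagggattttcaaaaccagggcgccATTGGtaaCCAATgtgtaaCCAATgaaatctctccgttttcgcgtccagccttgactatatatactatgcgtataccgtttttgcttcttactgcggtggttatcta
H2bc11 (chr13:22043048-22043197, plus): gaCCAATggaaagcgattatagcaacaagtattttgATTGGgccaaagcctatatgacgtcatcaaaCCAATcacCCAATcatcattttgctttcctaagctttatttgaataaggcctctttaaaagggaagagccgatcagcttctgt
H4c3 (chr13:23698459-23698608, minus): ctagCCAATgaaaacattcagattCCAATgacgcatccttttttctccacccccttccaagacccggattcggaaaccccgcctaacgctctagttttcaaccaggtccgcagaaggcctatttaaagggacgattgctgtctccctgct
H4c8 (chr13:23530929-23531043, plus): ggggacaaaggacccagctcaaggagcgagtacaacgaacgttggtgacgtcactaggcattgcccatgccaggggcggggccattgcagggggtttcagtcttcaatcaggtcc

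Of the 9 printed promoters, 8 carry at least 2 CCAAT boxes, the element bound by NF-Y, and H4c8 has 0 in the stretch shown, whereas H2bc11, H2ac13 and H2ac7 carry 4 each. In H2ac20 the TATA box lies inside a CArG box, which is why the capitals there run together. RefSeq promoter sequence was available by symbol for 25 of the 32 genes with a region, and the 250 bases before the start site were searched on both strands. A CCAAT box was present in 22 of the 25 (88%) and in 34.5% of 27025 promoters of the whole table. A TATA box was present in 10 of 25 (40%), against 13% of all promoters. The octamer ATTTGCAT (its other strand reads ATGCAAAT), a site of the factor Oct1 in H2B promoters, was in 6 of 25 (24%), against 1.61%. The TEAD core GGAATG, whose other strand reads CATTCC, was in 2 of 25 (8%), H4c3 and H4c8, against 12.6% of all promoters. A CArG box was in 2 of 25 (8%), H2ac20 and H2bc3, against 1.4%. These matches describe the letters of the windows and are no evidence of binding.

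Histone gene regions were shallow beside other promoters. In the T table of TGF-b against NC, member regions within 1 kb of a start site had a median of 20 reads over both libraries, beside 31 for all regions that close to a start site, and a median mean density of 5.58 beside 8.18. In the T table of siRNA against TGF-b the medians were 21 and 26 reads, with densities of 5.23 and 6.88. The S tables gave 20 beside 27 reads for TGF-b against NC, and 17 beside 32 reads for siRNA against TGF-b. In all 4 tables the histone promoters thus had fewer reads than the promoter class. Over regions of every class, T-set histone regions had more than the table, with medians of 18 beside 14 reads for TGF-b against NC and 15.5 beside 12 for siRNA against TGF-b. The densest members in the T table of TGF-b against NC were H4c8 (mean density 12), the H2A gene H2ac6 (8.67) and H3c15 (8.16). In the siRNA table the densest was H2ac13 (9.63). At least 20 reads over both libraries were reached by 15 of 33, 9 of 24, 3 of 6 and 2 of 6 regions.

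Members were concentrated on chromosome 13. It held 24 of 33 and 18 of 24 T-set regions (72.7% and 75%), against 4.42% and 4.37% of all regions, and 5 of 6 regions in each S table. The others lay on chromosomes 3, 6, 11 and 15. With gaps of at most 500 kb, the chromosome 13 members formed a smaller cluster around chr13:21966527-22220002, 253 kb long in the T table of TGF-b against NC, and a larger one at chr13:23715904-23946764, 231 kb long. The larger cluster held 21 regions of 15 histone genes and only 4 other regions in that table. Regions stood there at 10.8 per 100 kb, beside 6.25 over chromosome 13, while the smaller cluster had 3.16 per 100 kb. In the siRNA table the larger cluster held 12 histone regions and no other, at 5.5 per 100 kb beside 6.52 for the chromosome. The median distance between neighbouring member summits was 6446 bases and 9177 bases in the T tables. In the S tables it was 190787 and 215506 bases.

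Close spacing means that regions share reads. In the T table of TGF-b against NC, 10 of 33 members had another member summit within 2 kb, as did 4 of 24 in the siRNA table and none in the S tables. The 2 regions upstream of H2ac4 had identical values, as did 2 of the 3 intronic regions of H2bc6. The H2ac and H2bc genes form head-to-head pairs, so a window assigned to H2bc12, H2bc11, H2ac7 or H2ac13 also covers the promoter of its partner (H2ac12, H2ac11, H2bc7 and H2bc13), which cannot be told apart. RefSeq also places other histone genes within 1 kb of H2ac20 (H2bc21 and H2ac21), of H2bc9 (H3c7) and of H2ac6 (H2bc4), so windows there may hold reads of more than 1 gene. Transcripts of 19 of the 32 genes share at least one 50-base stretch with another of them, and how reads that map to several places were treated is not given in the sources used here. Promoters were more distinct: among the 25 genes only H3c15 shared a 50-base stretch with a histone promoter at another place (H3c14).

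**Figure D1:**
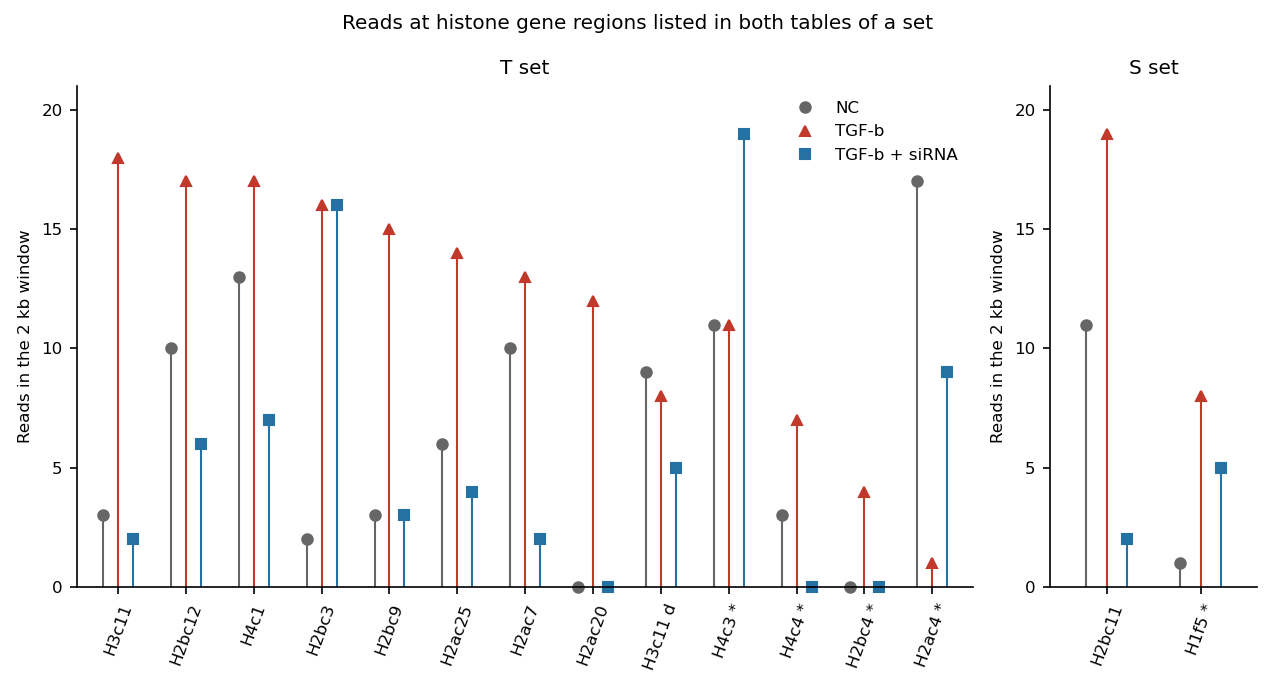
Reads in the 2 kb window (y axis, linear from 0) at the 13 T-set and 2 S-set histone regions listed in both tables of their set, for NC (grey circles), TGF-b (red triangles) and TGF-b plus siRNA (blue squares). A star marks regions farther than 1 kb from a start site and d the downstream region of H3c11; H2ac20 had 0, 12 and 0 reads, whereas H2ac4 had 17, 1 and 9.

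In the T set, 13 regions of 12 genes were listed in both tables, and the TGF-b library's reads were equal in both for 13 of 13. The comparisons of TGF-b with NC and of siRNA with TGF-b share that library, so a high or low TGF-b count moves both ratios in opposite directions. Of the 13, 10 were called as peaks in TGF-b alone in both tables, so a high TGF-b count there is partly set by how they entered the tables. The exceptions were H4c3, called in TGF-b and then in both libraries, and H2ac4 and the downstream region of H3c11, called in NC and then in siRNA. The promoter of H2ac20, an H2A gene on chromosome 3 (chr3:96128185-96128281), had 0 reads in NC, 12 with TGF-b and 0 with TGF-b plus siRNA. Among the members within 1 kb of a start site in the table of TGF-b against NC, it was the only one without a read in NC. With the library at 0 set to the floor of 3 reads, TGF-b was 3.76-fold above NC and siRNA 2.39-fold below TGF-b. These folds leave out counting error in the 12 reads, so they are no lower bounds. The log2 counting intervals ran upwards from 1.85 for TGF-b over NC and downwards from -1.20 for siRNA over TGF-b. The start site of H3c11, an H3 gene of the smaller cluster (chr13:21967539-21967661), had 3, 18 and 2 reads. Its densities of 1.91 and 9.94 gave a log2 ratio of 2.38 (1.05 to 4.38) for TGF-b over NC, and the siRNA gave -2.21 (-4.67 to -0.76). A second region of H3c11, downstream of it (chr13:21966527-21966600), had 9, 8 and 5 reads and log2 ratios of -0.03 and -0.13. The intervals of the downstream region include 0 in both comparisons.

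The H2B gene H2bc9 (chr13:23727567-23727753) had 3, 15 and 3 reads. Its log2 ratio was 2.14 (0.77 to 4.15) in the first comparison and -1.54 (-3.56 to -0.18) in the second. H2ac25, an H2A gene on chromosome 11 (chr11:58845458-58845638, 5′ UTR), had 6, 14 and 4 reads, giving 1.21 (0.01 to 2.67) and then -1.13 (-2.88 to 0.18) on the log2 scale. Both regions were called in TGF-b alone and named for this pattern, so their high TGF-b count is a description. The promoter of H2bc3 (chr13:23930463-23930565) had 2, 16 and 16 reads. Its log2 ratio was 2.65 (1.18 to 5.11) for TGF-b over NC and 0.47 (-0.51 to 1.45) for siRNA over TGF-b, so only the first step exceeded counting error.

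At 3 further promoters the first step was small. H2ac7, one of a divergent H2A and H2B pair (chr13:23758440-23758541), had 10, 13 and 2 reads. TGF-b over NC gave a log2 ratio of 0.45 (-0.68 to 1.63), and siRNA over TGF-b -1.77 (-4.24 to -0.26). H2bc12 (chr13:22219838-22220002) had 10, 17 and 6 reads, which gave 0.80 (-0.25 to 1.95) for the first step and -0.90 (-2.34 to 0.26) for the second. H4c1, an H4 gene at the far end of the larger cluster (chr13:23945624-23945723), had 13, 17 and 7 reads, the log2 ratios being 0.44 (-0.56 to 1.48) for TGF-b over NC and -0.71 (-2.05 to 0.41) after siRNA. Except for the siRNA step at H2ac7, these intervals include 0. H3c6 had a different peak in each table, with 12 and 18 reads in NC and TGF-b at chr13:23746708-23746800, and 18 and 3 reads in TGF-b and siRNA at chr13:23747013-23747110, a log2 ratio of -1.79 (-3.80 to -0.46) for the second pair.

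Regions away from start sites did not follow one pattern. The region upstream of H2ac4 (chr13:23933327-23933457) had 17, 1 and 9 reads. Its log2 ratio was -3.01 (-6.48 to -1.36) for the first step and 2.77 (1.01 to 6.23) for the second. It was lowest in TGF-b, whereas the promoter of H2bc3, less than 4 kb away, was lowest in NC. A 3′ UTR region of H4c4 had 3, 7 and 0 reads, and an intronic region of H2bc4 had 0, 4 and 0, too few for more than the values. A region upstream of H4c3 (chr13:23885260-23885458), labelled downstream of a neighbouring gene, had 11, 11 and 19 reads, with a log2 ratio of 1.20 (0.21 to 2.30) for siRNA over TGF-b. It was the only member called as a peak in both libraries of a table. In the T comparison of siRNA with TGF-b this was 4.17% of histone regions, beside 4.21% of all regions. No histone region was so called in the other comparisons, beside 5.42% (T TGF-b), 2.19% (S TGF-b) and 3.9% (S siRNA) of all regions.

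**Figure D2:**
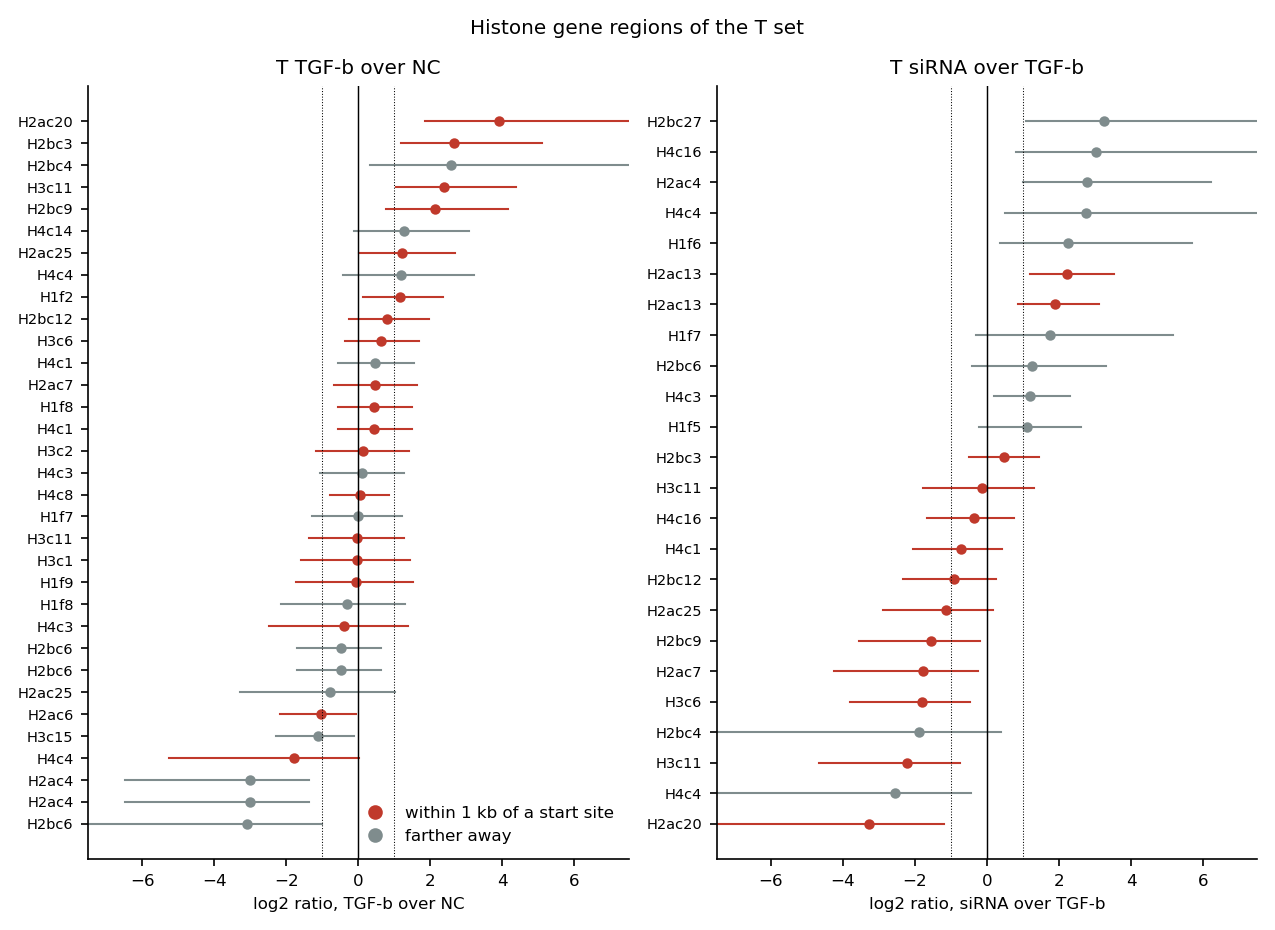
log2 ratio of normalised read density (x axis) for each of the 33 and 24 T-set histone regions (rows, by gene), with 95% counting intervals. Red regions lie within 1 kb of a start site and grey ones farther away, dotted lines mark 2-fold, and a bar that reaches the edge has no bound because 1 library had 0 reads; 21 of 33 and 10 of 24 intervals include 0, beside 54.1% and 49.7% of all regions.

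In the T set, TGF-b was at least 2-fold above NC at 9 of 33 histone regions (27.3%) and at least 2-fold below at 6 (18.2%), whereas 17.3% and 42.1% of all regions of that table were higher and lower. The median log2 ratio was 0.10 for the histone regions (0.00 without the normalisation line) and -0.65 for all regions. Region class moved with the ratio too, since all regions within 1 kb of a start site had a median of 0.09. Among the 19 histone regions that close, the median was 0.44, with 6 higher (31.6%, beside 21.4% of all such regions) and 2 lower (10.5%, beside 20.9%). Centred on the median of all regions, 15 of the 33 were higher and 4 lower. Counting intervals lay above 0 at 7 of the 33 regions and below 0 at 5, beside 14.8% and 31.1% of all regions. Beyond the regions already described, H1f2, a replication-dependent linker histone, had 9 and 20 reads in a 3′ UTR region near its start and a log2 ratio of 1.15 (0.13 to 2.34). Among lower regions was H2ac6, with 23 and 10 reads at its promoter and a log2 ratio of -1.05 (-2.18 to -0.08). H3c15, whose sequence is shared with H3c14, had 22 and 9 reads and a log2 ratio of -1.12 (-2.30 to -0.12). An intronic region of H2bc6 (chr13:23794970-23795069) had 14 and 9 reads and a log2 ratio of -0.49 (-1.71 to 0.64). Another (chr13:23797074-23797151) had 9 and 0 reads. With the 0 set to the floor of 3 reads it was 2.14-fold lower with TGF-b, and its log2 counting interval ran downwards from -1.01. The densest member, H4c8, had 23 reads in each library and a log2 ratio of 0.04 (-0.78 to 0.86).

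The library in which a peak was called moved with the ratio. Of the 33 regions, 22 were called in NC alone and 11 in TGF-b alone (66.7% and 33.3%), beside 68.9% and 25.7% of all regions. Regions called in TGF-b alone had a median log2 ratio of 1.21 among histone genes and 1.41 among all regions. Those called in NC alone had -0.19 and -1.27. H1f2 and H4c14 were called in NC alone and were more than 2-fold higher with TGF-b. The part of the calling library in the results was not tested.

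In the siRNA comparison of the T set, siRNA was 2-fold or more above TGF-b at 11 of 24 histone regions (45.8%) and as far below at 8 (33.3%), beside 49.7% and 16.2% of all regions. The balance turned with the scaling, to 6 higher and 12 lower when centred on all regions and to 8 and 10 without the normalisation line. Direction, place and the calling library moved together only in part. Near start sites, H3c6 was called in siRNA alone and yet was lower with siRNA (-1.79). So were H4c16 (-0.37) and the downstream region of H3c11 (-0.13). Of 13 regions within 1 kb of a start site, 2 were higher and 6 lower (46.2%), beside 25.1% and 22.2% of all such regions. Their median log2 ratio was -0.90, and that of all such regions was 0.03. Of these 13, 8 were called in TGF-b alone, with a median of -1.34 beside -1.03 for all regions so called and placed, and 5 in siRNA alone, with -0.13 beside 0.87. The median of all 24 regions was 0.17, beside 0.97 for all regions, but its sign turned negative under 7 of 9 alternative settings (-0.90 to -0.25), so it carries no direction. Of the 11 regions farther away, 9 were higher and 2 lower, beside 51.1% and 15.6% of all gene-assigned regions farther than 1 kb, with medians of 1.76 and 1.04. Among these 11, 8 were called in siRNA alone, and the 2 lower ones, at H4c4 and H2bc4, in TGF-b alone. The part of the calling library in the split by distance was not tested. Of those 11 regions, 9 had 3 reads or fewer in 1 of the libraries. The 2 higher regions near start sites were both at H2ac13, an H2A gene of the smaller cluster, with 8 and 23 reads at its promoter (chr13:21900426-21900550) and a log2 ratio of 1.88 (0.86 to 3.12). Its second window, which overlaps the first, had 7 and 26 reads. No region of H2ac13 was listed in the table of TGF-b against NC. H4c16, an H4 gene on chromosome 6, had 15 and 8 reads at its promoter and a log2 ratio of -0.37 (-1.65 to 0.76).

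**Figure D3:**
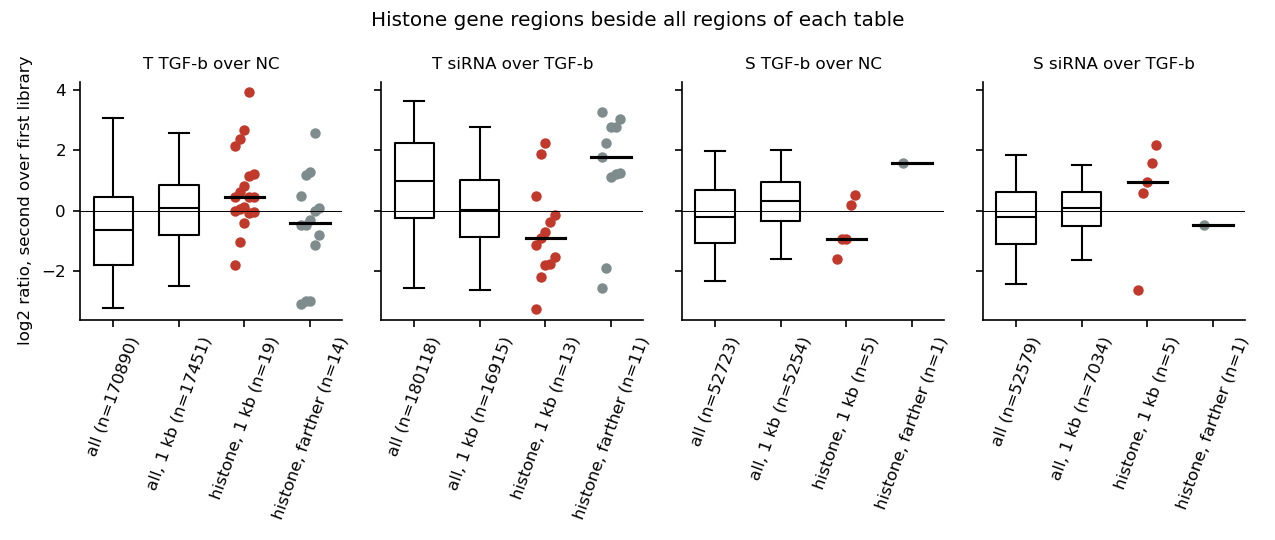
log2 ratio of the second over the first library (y axis) in the 4 comparisons: boxes show all regions and all regions within 1 kb of a start site (median, quartiles, whiskers from the 5th to the 95th percentile), and points show each histone region, with a bar at the median. In the T set histone regions near start sites had medians of 0.44 and -0.90, and in the S set -0.95 and 0.93.

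By family, H2B regions had the highest median log2 ratio in the T comparison of TGF-b with NC, 0.80 over 7 regions, and H2A regions the lowest, -0.80 over 7. H4, H3 and H1 regions had medians of 0.27, 0.04 and -0.02. With windows of identical values counted once, a setting chosen after seeing the data, the H2B median was 1.47 and the H2A median -0.18, over 6 regions each. In the siRNA comparison H3 regions had a median of -1.79 over 3 regions and H1 regions 1.76 over 3. Families of 3 to 8 regions with such spreads were not ranked further.

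**Figure D4:**
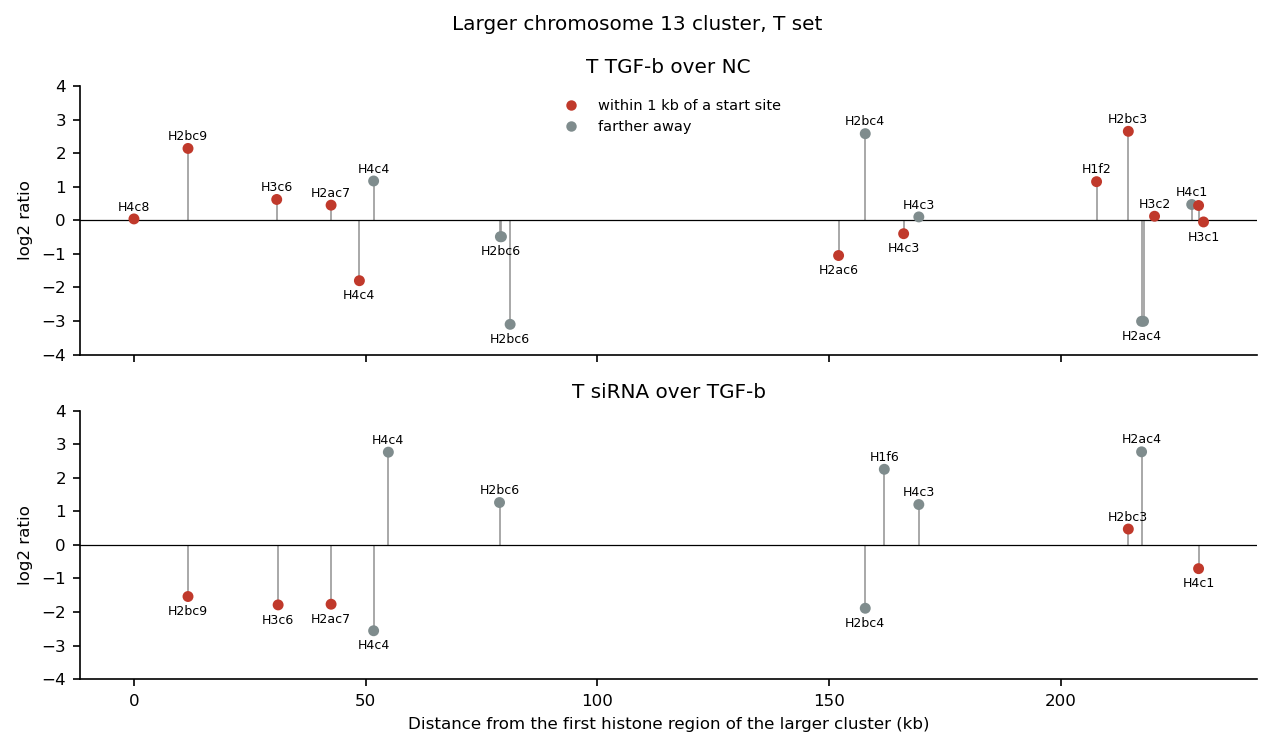
log2 ratio (y axis) of T-set histone regions along the larger chromosome 13 cluster, by distance in kb from its first histone region (x axis), for TGF-b over NC (top) and siRNA over TGF-b (bottom). Red regions lie within 1 kb of a start site and grey ones farther away; both panels hold higher and lower regions, and in the upper one H2bc3 (2.65) and H2ac4 (-3.01) lie close together.

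Along the larger cluster, regions at least 2-fold higher and lower with TGF-b were equal in number, 5 and 5 of 21, beside 17.3% and 42.1% of all regions, with a median log2 ratio of 0.10. The 4 other regions inside it had a median of -2.33, and all 4 were at least 2-fold lower. With siRNA, 5 of 12 regions were higher and 5 lower, beside 49.7% and 16.2% of all regions, with a median of -0.12. The cluster did not move as a block in either comparison.

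In the S set, 1 of 6 histone regions was at least 2-fold higher with TGF-b than in NC and 1 at least 2-fold lower, beside 17.4% and 26.7% of all regions. All 6 counting intervals include 0, as do 69.3% of those of all regions. H2bc11, an H2B gene of the smaller cluster (chr13:22227217-22227382), had 11 reads in NC, 19 with TGF-b and 2 with TGF-b plus siRNA. Its log2 ratio was 0.18 (-0.82 to 1.28) for TGF-b over NC and -2.62 (-5.08 to -1.18) for siRNA over TGF-b, the lowest of the S-set members. H1f5, a linker histone, had 1, 8 and 5 reads in a downstream region. The remaining regions were listed in 1 table only. With NC and TGF-b, H2bc6 had 12 and 9 reads (log2 ratio -0.95, -2.20 to 0.22), H1f2 6 and 14 (0.52, -0.69 to 1.98), H1f8 8 and 6, and H2bc15 7 and 3. The median log2 ratio was -0.39, beside -0.20 for all regions, and 0.18 without the germ-line gene H1f8.

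In the S comparison of siRNA with TGF-b, 2 of 6 regions were at least 2-fold higher and 1 lower, beside 15.1% and 27.8% of all regions. H4c8 had 3 and 10 reads at its start site (log2 ratio 1.59, 0.11 to 3.62). H4c3 had 1 and 7 reads (2.16, 0.33 to 5.61). H3c1, the partner of H4c1, had 9 and 17 (0.93, -0.13 to 2.14), and H2bc18 on chromosome 3 had 7 and 10 (0.57, -0.72 to 1.97). These 4 regions were called as peaks in the siRNA library alone and H2bc11 in TGF-b alone, so the calling library and the direction cannot be told apart. The 4 had a median of 1.26, beside 0.48 for all regions within 1 kb called in siRNA alone. The median was 0.75 over the 6 regions, beside -0.21 for all regions, and 0.93 over the 5 promoters, beside 0.07 for all regions within 1 kb of a start site. Read counts of 1 and 3 in the TGF-b library carry the 2 largest values.

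No histone gene had a region within 1 kb of a start site in all 4 tables. The S tables held only 5 such histone regions each, and the same share over all genes was not computed. This absence is therefore no result about histone genes. Where T-set and S-set windows met, H1f2 had 9 and 20 reads in NC and TGF-b in the T set and 6 and 14 in the S set, summits 127 bases apart. After normalisation the log2 ratio was 1.15 (0.13 to 2.34) for the T set and 0.52 for the S set, where the interval (-0.69 to 1.98) includes 0. At the pair of H4c1 and H3c1, the T-set window of H4c1 had 17 and 7 reads in TGF-b and siRNA, whereas the S-set window of H3c1, its summit 786 bases away, had 9 and 17. At H1f5, with summits 33 bases apart, TGF-b and siRNA had 6 and 10 reads in the T set (log2 ratio 1.11, -0.21 to 2.60) and 8 and 5 in the S set (-0.46, -2.09 to 0.98). The intervals at H4c1, H3c1 and H1f5 in these comparisons all include 0. The sets were normalised separately, so their levels were not compared.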

How the data were processed

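CUT&Tag regions of 6 libraries, 1 per group, were read from 4 annotated tables, 2 per set. In each deposited table the authors gave, for every region called in either library, a normalised read density (signal) per library and the mean of both on a log2 scale (A value, log2, also deposited). Their own comparison columns hold M values, fold changes and p-values and were not used. Whole reads were recovered within 0.1 read for 99.99%, 99.99%, 99.98% and 99.97% of regions (T TGF-b, T siRNA, S TGF-b, S siRNA), from both units together, as (reads + 1)/2 shifted along a fitted normalisation line; the 2 kb window is inferred from the step of 0.5 per read. Library totals were not used here, so depth is given as reads per region. The study's methods name GRCm39, Bowtie2 and a peak caller written as Masc2, whereas the submitters' processing notes list mm10 and BWA 0.7.12. Of the 32 histone genes, 0 lay within 2 kb of their GRCm38 positions, so coordinates of regions are the files' own and no sequence was read by them. The spike-in DNA named in the methods played no part in these values.

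Members were taken by symbol, and members and gene lists were chosen with earlier results of these data known. Genes were named by a rule: the 6 with the highest mean density per table, the 4 largest rises and falls at 20 or more reads, those at least 2-fold higher and then lower within a set, and those listed in all 4 tables. H2ac7, H2ac4 and the genes quoted from the closing lists were chosen after their values were seen. A 2-fold threshold was used, with a floor of 3 reads. Promoters came from RefSeq (GRCm38.p6). The recovery of reads was tested on simulated data. Python, pandas, numpy and scipy were used. Alternatives were centring, no normalisation line, floors, read minimums, distance classes, 1 region per gene or per 2 kb, and thresholds of 1.5-fold and 4-fold. Others left out replication-independent or germ-line genes, or required the counting interval to lie on the same side of 0.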

Additional observations from a re-analysis of the deposited data

Results flagged for a closer look

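Several medians had opposite signs in the T and S sets under the same comparison, and with 1 library per group this difference between the sets was not tested. For TGF-b over NC, the T set had a median log2 ratio of 0.10 over its histone regions, and the S set one of -0.39. Within 1 kb of a start site the T set gave 0.44, the S set -0.95. For siRNA over TGF-b, histone regions within 1 kb of a start site had medians of -0.90 (T set, 13 regions) and 0.93 (S set, 5 regions). The library in which a peak was called differed too, and its part was not tested. For TGF-b over NC, 11 of 19 such regions in the T set were called in NC alone and 8 in TGF-b alone. Of all regions within 1 kb there, 8765 of 17451 were called in NC alone and 5206 in TGF-b alone. In the S set, 4 of 5 were called in NC alone, beside 1773 of 5254. For siRNA over TGF-b, 8 of 13 were called in TGF-b alone in the T set, beside 5665 of 16915. In the S set, 4 of 5 were called in siRNA alone, beside 3553 of 7034. The sets hold mostly different genes, 7 of 32 being shared, the sign over all regions changed under 3 of 9 settings in the S set, and the S-set medians rest on 5 or 6 regions each.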

How the results depend on the processing

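Depth, 1 library per group and the calling of peaks in single libraries all limit these values. With fewer than about 20 reads in 1 of 2 libraries, a 2-fold change often lies within counting error, and 1 library per group leaves variation between cultures unmeasured. All 4 medians had rank intervals that included 0. These intervals take regions as units, some of them sharing reads, and measure no variation between libraries. In the S set they ran from the lowest to the highest of 6 regions (-1.60 to 1.56 and -2.62 to 2.16). Of 132 recomputed values, 106 stayed within 1.5 times the count or within that interval. Medians of the other sign could stay within it too, so the 106 is no measure of stability. The sign of the median differed from that reported under 0 of 9, 7 of 9, 3 of 9 and 1 of 9 settings (T TGF-b, T siRNA, S TGF-b, S siRNA). The T TGF-b median was 0.00 without the normalisation line. For regions within 1 kb, 2 scalings added after seeing the data kept the sign of all 4 medians, with -1.87 for the T siRNA comparison when centred. No paired analysis was possible because each group was 1 library and carried no replicate number. The planned count of regions raised and then lowered was not run, because both comparisons share the TGF-b library.

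In the T comparison of TGF-b with NC, centring on all regions moved the median from 0.10 to 0.75, the higher count from 9 to 15 and the lower from 6 to 4. There, regions of at least 20 reads gave 3 higher and 2 lower, a 4-fold threshold 5 and 3, regions within 1 kb 2 lower, and 1 region per gene 3 lower. In the T comparison of siRNA with TGF-b, centring moved the higher count from 11 to 6 and the lower from 8 to 12. At least 20 reads gave 3 higher and 2 lower, within 1 kb 2 higher, and 4-fold 6 higher and 3 lower. In the S comparison of TGF-b with NC, the higher count of 1 became 2 without the normalisation line and 0 once counts up to 3 were raised to 3, at 20 or more reads, within 1 kb or at 4-fold. The lower count of 1 became 3 at 1.5-fold and 0 at 20 or more reads or 4-fold. Both counts became 0 when the counting interval also had to lie on the same side of 0. In the S comparison of siRNA with TGF-b, the higher count of 2 became 0 at 20 or more reads and 1 at 4-fold. Limits on reads and distance leave fewer regions, but within 1 kb the shares changed too, from 45.8% to 15.4% higher in the T siRNA comparison. The cause of these shifts was not tested.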

Other observations

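Genes that act on histones were listed beside the histone genes themselves, with 1 region within 1 kb of a start site per gene. Among 19 histone chaperones, 14 had such a region in the T table of TGF-b against NC, 8 of them at least 2-fold higher and 0 lower, with a median log2 ratio of 1.57. Of all such regions, 21.4% were higher and 20.9% lower, with a median of 0.09. The 14 chaperone regions were called in TGF-b alone (10) or in both libraries (4). Of all 17451 regions within 1 kb, 8765 were called in NC alone, 5206 in TGF-b alone and 3480 in both. Those called in TGF-b alone had a median of 1.03, and those called in both 0.32. The list keeps the region with most reads per gene, whereas the background holds every region, so the 2 are unlike. The part of the calling library was not tested. Rbbp7, a histone-binding subunit of several chromatin complexes, had 1 read in NC and 33 with TGF-b, and a log2 ratio of 4.22 (2.65 to 7.71). Anp32e, a chaperone that removes H2A.Z, had 9 and 42 reads and a log2 ratio of 2.16 (1.26 to 3.29). Chaf1a, the large subunit of the CAF-1 assembly factor, had 9 and 29 reads and a log2 ratio of 1.65 (0.70 to 2.81). With siRNA, 1 of 14 was higher than with TGF-b and 4 were lower, beside 25.1% and 22.2% of all such regions, and the median was -0.71 beside 0.03. These 14 were called in TGF-b alone or in both libraries, and all regions within 1 kb so called had medians of -1.03 and -0.21. Those called in siRNA alone, 8229 of 16915 in this comparison, had 0.87. Anp32e had 42 and 58 reads there (0.94, 0.38 to 1.52), Rbbp7 33 and 21 (-0.15, -0.96 to 0.60) and Chaf1a 29 and 16 (-0.35, -1.25 to 0.48).

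Among 30 genes of histone transcription and mRNA processing, 19 had such a region in the T table of TGF-b against NC, 6 higher and 3 lower, beside the same 21.4% and 20.9%, with a median of 0.66. With siRNA, 4 of 17 were higher and 6 lower, beside 25.1% and 22.2%, with a median of -0.12 beside 0.03. Coil, the scaffold of Cajal bodies, had 4 and 30 reads (2.73, 1.56 to 4.45), and with siRNA 30 and 2. Nfya, a subunit of the CCAAT-binding factor NF-Y, had 67 and 154 reads (1.09, 0.69 to 1.52), and with siRNA 154 and 37 (-1.54, -2.08 to -1.05). Npat, the coactivator of histone genes, had 35 and 35 reads (0.00). Higher with siRNA were Slbp, which binds the histone stem-loop, with 26 and 48 reads (1.34, 0.68 to 2.04), and Lsm10, a subunit of the U7 particle, with 10 and 31 (2.01, 1.09 to 3.11). Among 14 replication-independent histone genes, 7 had such a region, 2 higher and 1 lower, beside 21.4% and 20.9%, with a median of 0.29. With siRNA, 0 of 5 were higher and 4 lower, beside 25.1% and 22.2%, with a median of -1.35 beside 0.03. These 5 were called in TGF-b alone or in both libraries, and all regions within 1 kb so called had medians of -1.03 and -0.21. The part of the calling library was not tested. H3f3b, an H3.3 gene, had 18 and 44 reads (1.26, 0.53 to 2.09), and with siRNA 44 and 16 (-0.93, -1.80 to -0.17). H2az2, an H2A.Z gene, had 15 and 41 reads, and with siRNA 41 and 8.

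In the S table of TGF-b against NC, 5 chaperones, 12 processing genes and 5 replication-independent histone genes had such a region. Their medians were 1.08, 0.69 and 0.76, beside 0.33 for all regions within 1 kb. At least 2-fold higher were 3, 4 and 1 of them, and lower 1, 0 and 0, beside 23.6% and 11%. In each list most regions were called in TGF-b alone, and all regions within 1 kb so called had a median of 0.79. With siRNA in the S set the medians were 0.54, -0.02 and -0.01 over 11, 12 and 4 genes, beside 0.07. At least 2-fold higher were 1, 0 and 0 of them, and lower 1, 1 and 0, beside 12.9% and 12.5%. Most of the chaperone regions were called in siRNA alone, and all regions within 1 kb so called had a median of 0.48. The part of the calling library was not tested.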
